A study of Mus musculus with 12 samples.

Results

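The aryl hydrocarbon receptor (AhR) and 6 genes around it were followed in mouse liver: Ahr itself, its partner Arnt, the feedback repressors Ahrr and Tiparp, and the cytochrome P450 genes Cyp1a1, Cyp1a2 and Cyp1b1. These 7 genes were taken by name from the 56065 genes listed for each library. All 7 were kept whatever their values, and they were chosen with earlier results of these data known. Liver RNA was sequenced in 3 groups of 4 libraries, and all mice carried floxed AhR alleles, with no Cre named in the labels. Mice of the first group, CD, ate a sucrose-matched control diet in which fat gave 10 kcal%. Mice of the MD group ate a MASH (metabolic dysfunction-associated steatohepatitis) diet with 2% cholesterol, in which fat gave 40 kcal% and fructose 20 kcal%, and received vehicle containing 0.2% DMSO. The third group, MD+CA, ate the MASH diet and received cinnabarinic acid at 12 mg/kg body weight in 0.2% DMSO. Both MASH diet groups were injected into the peritoneum 3 times a week, and for CD mice no injection is mentioned. Feeding began at 8 weeks of age and went on for 20 weeks. Floxed alleles without a recombinase are generally used as controls with a working receptor, and no receptor-deficient group is among these samples.

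AhR is a ligand-activated transcription factor of the bHLH-PAS family. Without ligand it waits in the cytosol with HSP90 and p23. With ligand it moves to the nucleus, pairs with ARNT and binds response elements built around the core GCGTG. In liver it is known for inducing CYP1 enzymes, which oxidize aromatic compounds and clear many of its own ligands. AHRR, which competes for ARNT, and TIPARP, which ADP-ribosylates the receptor, are induced by it and turn it down. Cinnabarinic acid is a tryptophan metabolite of the kynurenine pathway and a known AhR agonist.

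Such elements can lie in the sequence before the start site of a target gene. That sequence is shown for 3 members at opposite ends of the expression range: Cyp1a2, the most abundant, and Cyp1a1 and Ahrr, the least abundant. Each run is the 250 bases before the RefSeq start site in build GRCm38.p6, 5′ to 3′ on the strand of the gene, with every GCGTG core in capitals. The windows are chr9:57697363-57697612 on the plus strand for Cyp1a1, chr9:57683656-57683905 on the minus strand for Cyp1a2 and chr13:74292332-74292581 on the minus strand for Ahrr.
Cyp1a1: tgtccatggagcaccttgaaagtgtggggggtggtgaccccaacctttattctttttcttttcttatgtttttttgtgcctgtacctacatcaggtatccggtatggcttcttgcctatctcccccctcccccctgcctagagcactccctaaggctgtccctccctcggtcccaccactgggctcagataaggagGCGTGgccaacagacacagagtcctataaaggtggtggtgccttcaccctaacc
Cyp1a2: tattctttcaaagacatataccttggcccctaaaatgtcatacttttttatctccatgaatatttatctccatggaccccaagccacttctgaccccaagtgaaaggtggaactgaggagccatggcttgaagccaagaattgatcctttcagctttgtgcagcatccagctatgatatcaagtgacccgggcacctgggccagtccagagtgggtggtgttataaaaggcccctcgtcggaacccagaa
Ahrr: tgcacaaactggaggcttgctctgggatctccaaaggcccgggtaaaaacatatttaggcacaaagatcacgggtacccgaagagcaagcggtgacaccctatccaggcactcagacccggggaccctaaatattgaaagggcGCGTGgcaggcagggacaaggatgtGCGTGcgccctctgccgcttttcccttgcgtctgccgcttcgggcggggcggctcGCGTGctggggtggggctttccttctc
The core was searched as GCGTG and, for the other strand, as CACGC. It occurred in 28.2% of the 32851 promoter windows of this length. Cyp1a1 had 1 copy, starting 54 bases before the start site. Ahrr had 3 copies, the nearest starting 27 bases and the next 82 bases before it, and 2.77% of windows held 3 or more. Cyp1a2 had none of these letters in its window. Among the other members in the table, Arnt had 1 copy at 29 bases on the strand of the gene. Tiparp and Cyp1b1 had 1 each on the opposite strand, at 170 and 76 bases. These matches describe sequence only, since binding was not measured. Sequence outside the 250 bases was not searched, so a window without the core does not show that a gene lacks such elements.

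The libraries held 9089586 to 14492587 assigned reads, and 13631 genes had enough reads to be tested. Hepatocyte markers such as Alb and Apoa1 were present in every library, with a summed level of 33990 to 67060 CPM (counts-per-million, scaled by TMM) over 6 markers. All libraries are labelled male, yet each held 5122 to 12865 reads of Xist and 0 reads of the Y-linked genes Ddx3y, Kdm5d, Uty and Eif2s3y. MD replicate 2 and MD+CA replicate 3 had the lowest median correlation with the other libraries (0.909 and 0.932). MD replicate 2 also had the largest mitochondrial share, 17.5% of reads, and MD+CA replicate 3 the fewest reads. Nothing in the labels says how the mice were housed or on which days livers were taken, and a p-value here reflects the spread between these libraries, which may in part be technical. In whole liver, fewer cells of a type and less RNA per cell cannot be told apart.

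No member passed the test in any comparison. Ahr, Arnt, Tiparp, Cyp1a2 and Cyp1b1 had enough reads to be tested, and 0 of these 5 had an edgeR adjusted p (Benjamini-Hochberg over all genes tested) under 0.05. Over all genes tested, 0.088% passed for diet (MD vs CD), 2.71% for treatment on the diet (MD+CA vs MD) and 0.528% for the treated diet against control (MD+CA vs CD). At an unadjusted p under 0.05, edgeR gave Arnt in MD vs CD and Cyp1a2 in MD+CA vs MD, while 19.9%, 23.2% and 10.5% of all genes tested lay under that value in the same order. DESeq2 and limma voom also gave 0 of 5 in each comparison. The diet and treatment comparisons share the MD libraries, so a high or low MD value moves both in opposite directions. In what is called diet here (MD vs CD), diet and injection cannot be told apart, since no injection is mentioned for CD mice. The same holds for MD+CA vs CD. Ahrr and Cyp1a1 fell below the count filter and are described by their reads.

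**Figure D1:**
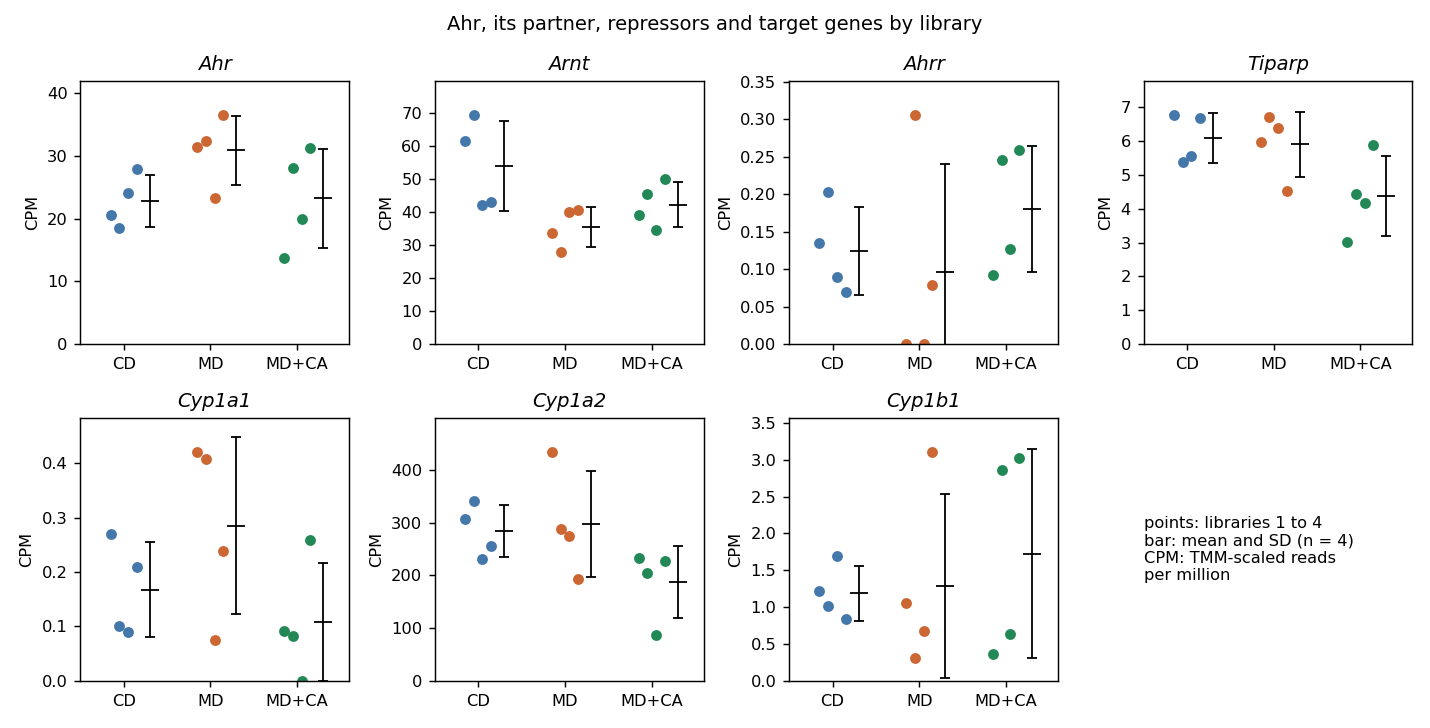
TMM-scaled counts-per-million (CPM, vertical axes from 0) of the 7 genes in CD, MD and MD+CA. Points are the 4 libraries of a group and bars show mean and SD, drawn down to 0 at most. Groups overlap in every panel except Arnt, where the 4 MD libraries (27.9 to 40.6) lie below the 4 CD libraries (42.2 to 69.4). The Arnt difference did not pass (edgeR adjusted p = 0.153).

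Ahr, the receptor, was read at a moderate level in all 12 libraries. In CD it had 20.5, 18.5, 24.1 and 27.9 CPM in replicates 1 to 4, in MD 31.5, 32.4, 23.3 and 36.5, and in MD+CA 13.7, 28.1, 20.0 and 31.2. The MD libraries were the highest as a group but overlapped both others, and MD+CA spread most, with a highest library 2.28 times its lowest. MD was above CD by a log2 fold change of 0.44 (SE 0.24, 95% interval -0.083 to 0.96, edgeR adjusted p = 0.324). MD+CA was below MD by a log2 fold change of -0.41 (interval -0.93 to 0.11, edgeR adjusted p = 0.329). Against CD, MD+CA differed by 0.03 on the log2 scale, and the interval of -0.49 to 0.55 covers 0.711 to 1.47 times the CD level.

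At the transcript level Ahr was nearly all one form. Of 3704 Ahr reads, 99.81% were assigned to Ahr-202, the protein-coding transcript of 5548 bases. Ahr-203, an 818-base transcript with a retained intron, had 7.02 estimated reads over 4 libraries: 4 in CD replicate 1 and about 1 each in CD replicate 4, MD replicate 1 and MD replicate 3. It had 0 reads in the 4 MD+CA libraries. Ahr-201, a transcript of 1155 bases annotated for nonsense-mediated decay, had 0 estimated reads in all 12 libraries. Counting error alone would allow it a share of up to 0.081% of Ahr reads. This bound leaves out error in assigning reads that fit more than 1 transcript. The mean share of Ahr-202 was 100% ± 0 in MD+CA, 99.9% ± 0.16 in MD and 99.6% ± 0.63 in CD (SD, n = 4). Exact two-sided permutation tests gave p = 0.714 for the diet and 0.429 for each comparison of MD+CA, where the smallest p that 4 against 4 allows is 0.0286. After adjustment over the 3 tests these were 0.714 and, for both MD+CA comparisons, 0.643. Without CD replicate 1, the share in MD minus that in CD went from 0.26 to -0.054 percentage points. Reads are summed over whole transcripts, so these values do not show whether the floxed part of Ahr was present.

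Arnt encodes the shared bHLH-PAS partner that AhR and the hypoxia-inducible factors need to bind DNA. It had 61.5, 69.4, 42.2 and 43.2 CPM in CD, 33.9, 27.9, 40.0 and 40.6 in MD, and 39.2, 45.4, 34.6 and 50.0 in MD+CA. Every MD library was below every CD library, and MD+CA overlapped both. The share of all genes whose groups lie apart in this way was not counted, here or for the genes below. By edgeR p, Arnt ranked 1075 of the 13631 genes tested in MD vs CD. The CD libraries themselves fell into a higher pair, replicates 1 and 2, and a lower pair just above the highest MD library. The group means were 35.6 ± 5.95 CPM in MD and 54.1 ± 13.5 in CD (SD, n = 4). That is a log2 fold change of -0.60 (SE 0.21, 95% interval -1.05 to -0.15), with an edgeR p of 0.0121 and an adjusted p of 0.153. Without MD replicate 2, the library of the largest mitochondrial share, the log2 fold change was -0.50 (edgeR adjusted p = 0.323). Mitochondrial share averaged 10.9% ± 4.78 in MD and 6.21% ± 0.39 in CD (SD, n = 4; exact two-sided permutation p = 0.0857, 0.3 adjusted over 9 tests of library measures), and its part in the Arnt values was not tested. MD+CA differed from MD by a log2 fold change of 0.25 (interval -0.20 to 0.70, edgeR adjusted p = 0.498) and from CD by -0.35 (-0.80 to 0.097, adjusted p = 0.652).

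Most Arnt reads were assigned to the protein-coding Arnt-201 (85.5% of 6321 reads). Arnt-204, a second protein-coding form of nearly the same length (4260 against 4325 bases), took 37.6% of Arnt reads in MD replicate 4, 19.2% in MD+CA replicate 2, and 0 in 7 libraries. Transcripts with a retained intron made up 3.26% to 10.7% of Arnt reads. The split between the 2 long forms is an estimate from reads that fit both.

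Ahrr and Tiparp are the feedback repressors. Ahrr was near the limit of detection, with 2, 2, 1 and 1 reads in CD, 0, 3, 0 and 1 in MD, and 1, 3, 1 and 3 in MD+CA. A count of 3 reads corresponds to 0.207 to 0.33 RPM (reads-per-million, without TMM scaling) in these libraries, and no library held more than 3 Ahrr reads. Summed over a group, Ahrr had 6 reads in CD (0.119 RPM, exact Poisson 95% interval 0.044 to 0.259), 4 in MD (0.081, 0.022 to 0.206) and 8 in MD+CA (0.189, 0.082 to 0.373). The ratio of MD+CA to MD was 2.35, with a counting interval of 0.629 to 10.7, so a difference of a few fold was not detectable at this depth.

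Tiparp had 6.75, 5.37, 5.54 and 6.67 CPM in CD, 5.96, 6.72, 6.39 and 4.54 in MD, and 3.03, 4.42, 4.18 and 5.88 in MD+CA. CD and MD covered nearly the same range, and 3 of the 4 MD+CA libraries were below every library of the other groups. MD+CA was at a log2 fold change of -0.43 from MD (SE 0.24, interval -0.93 to 0.080, edgeR adjusted p = 0.293) and of -0.48 from CD (-0.98 to 0.030, adjusted p = 0.533). For MD vs CD the log2 fold change was -0.049, with an interval of -0.55 to 0.45. Both upper bounds for MD+CA, 1.06 times MD and 1.02 times CD, lie close to no change.

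Cyp1a1, the most inducible of the classical AhR targets in liver, was also near the limit of detection, with 28 reads in all against 18 of Ahrr. It had 4, 1, 1 and 3 reads in CD, 6, 4, 1 and 3 in MD, and 1, 1, 0 and 3 in MD+CA. The highest library was MD replicate 1, and the one library without a read was MD+CA replicate 3, the shallowest. Per group this came to 9 reads in CD (0.179 RPM, 0.082 to 0.339), 14 in MD (0.282, 0.154 to 0.473) and 5 in MD+CA (0.118, 0.038 to 0.276). MD+CA stood at 0.42 times MD with a counting interval of 0.118 to 1.23, and at 0.661 times CD with an interval of 0.174 to 2.2. Exact two-sided permutation tests of Cyp1a1 and Ahrr in the 3 comparisons gave p = 0.2 to 0.771, or 0.446 to 0.771 adjusted over the 6 tests. The Poisson intervals cover counting error only, not the spread between mice.

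Cyp1a2 is a constitutive liver enzyme that is also AhR-responsive and is concentrated around the central vein. It had 307, 341, 231 and 255 CPM in CD, 434, 288, 275 and 192 in MD, and 233, 205, 87.0 and 227 in MD+CA. No MD+CA library exceeded 233 CPM, close to the lowest CD library, while 3 of the 4 MD libraries were above every MD+CA library. MD+CA replicate 3 was the lowest of all. MD+CA averaged 188 ± 68.3 CPM against 297 ± 100 in MD (SD, n = 4). The log2 fold change was -0.66 (SE 0.31, interval -1.32 to -0.006), with an edgeR p of 0.0482 and an adjusted p of 0.212. Without MD+CA replicate 3 it was -0.43 (adjusted p = 0.375), and without MD replicate 1, the highest library, -0.42 (adjusted p = 0.503). Against CD the log2 fold change of MD+CA was -0.59 (-1.25 to 0.062, edgeR adjusted p = 0.561), and that of MD was 0.068 (-0.58 to 0.72, adjusted p = 0.92). Of 11 other pericentral markers, among them Glul and Cyp2e1, 11 had a negative log2 fold change in MD+CA vs MD. Their median was -0.30, and 0 passed by edgeR, DESeq2 or limma voom. At an unadjusted edgeR p under 0.05 there were 2 of 11, against 23.2% of all genes tested. In MD vs CD 11 of these 11 markers were positive, with a median of 0.37. In MD+CA vs CD 8 were positive and 3 negative, with a median of 0.15, and 0 passed by edgeR in either comparison. The summed level of the 11 markers was 4731 to 6984 CPM in CD, 4879 to 8070 in MD and 5030 to 6671 in MD+CA. Their part in the Cyp1a2 values was not tested.

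Cyp1b1, the family member known mainly outside hepatocytes, varied most within each group among the 5 tested members. It had 18, 10, 19 and 12 reads in CD, 15, 3, 9 and 39 in MD, and 4, 35, 5 and 35 in MD+CA. In CPM, MD ran from 0.305 to 3.10 and MD+CA from 0.367 to 3.03, while CD stayed between 0.834 and 1.70. The highest library was 10.2 times the lowest in MD, 8.24 times in MD+CA and 2.04 times in CD. The intervals were correspondingly wide. For MD vs CD the log2 fold change was 0.13 (-1.33 to 1.58, edgeR adjusted p = 0.936), for MD+CA against MD 0.43 (-0.996 to 1.86, adjusted p = 0.73), and for MD+CA vs CD 0.56 (-0.88 to 2.00, adjusted p = 0.885). Without MD replicate 4 the MD vs CD value turned to -0.77 (adjusted p = 0.555) and the MD+CA vs MD value rose to 1.32 (adjusted p = 0.279). Reads were divided between Cyp1b1-201 and Cyp1b1-202, and 3 libraries had all of them on the first form and 4 on the second. Stellate cell and fibroblast markers, which belong to cells that can express Cyp1b1, summed to 147 to 190 CPM in CD, 228 to 276 in MD and 138 to 272 in MD+CA over 10 genes, and their part in the Cyp1b1 values was not tested.

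**Figure D2:**
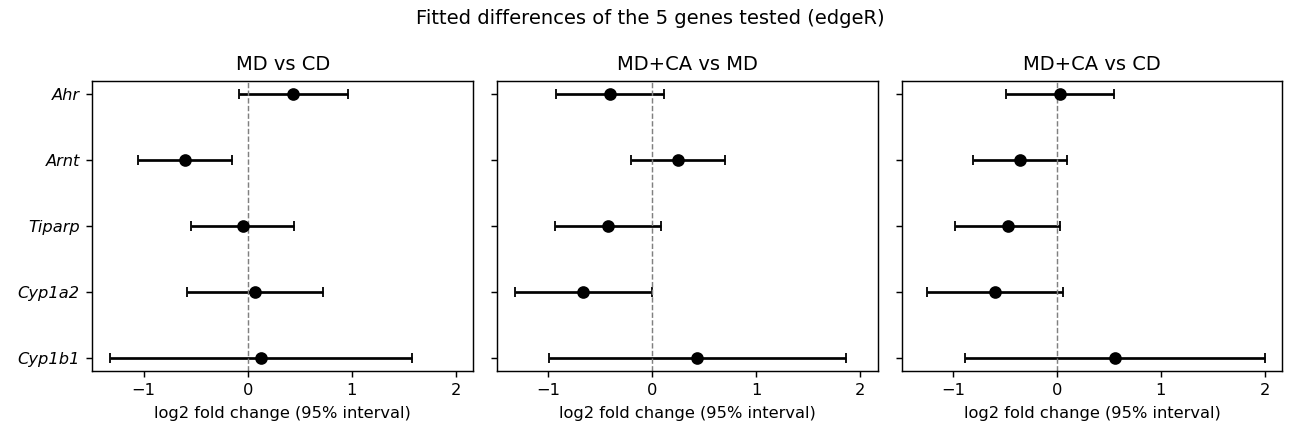
Log2 fold change with its 95% interval (horizontal axes) of the 5 genes tested, in the 3 comparisons. All intervals reach across 0 except Arnt in MD vs CD (-1.05 to -0.15) and Cyp1a2 in MD+CA vs MD (-1.32 to -0.006), and these intervals are not adjusted for the number of genes.

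Ranked per transcript length, the 7 genes ran from Cyp1a2 down to Ahrr. Mean TPM (transcripts-per-million, a level per length) over the 12 libraries was 161 for Cyp1a2, 13.0 for Arnt, 6.58 for Ahr, 1.86 for Tiparp, 0.486 for Cyp1b1, 0.083 for Cyp1a1 and 0.041 for Ahrr. In each library Cyp1a2 was above Arnt, Arnt above Ahr, Ahr above Tiparp and Tiparp above Cyp1b1. Ranges over all libraries were apart only between Cyp1a2 and Arnt (lowest 46.6 against highest 20.5) and between Ahr and Tiparp (3.76 against 2.74). Cyp1b1 exceeded Cyp1a1 in 11 of 12 libraries and Cyp1a1 exceeded Ahrr in 9 of 12, and their ranges overlapped. Mean TPM of Arnt and Ahr was 16.2 and 6.23 in CD, 9.94 and 7.29 in MD, and 13.0 and 6.22 in MD+CA, so the gap between partner and receptor was narrowest in MD. The 2 Cyp1a neighbours, Cyp1a1 and Cyp1a2, lay at opposite ends of the family.

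**Figure D3:**
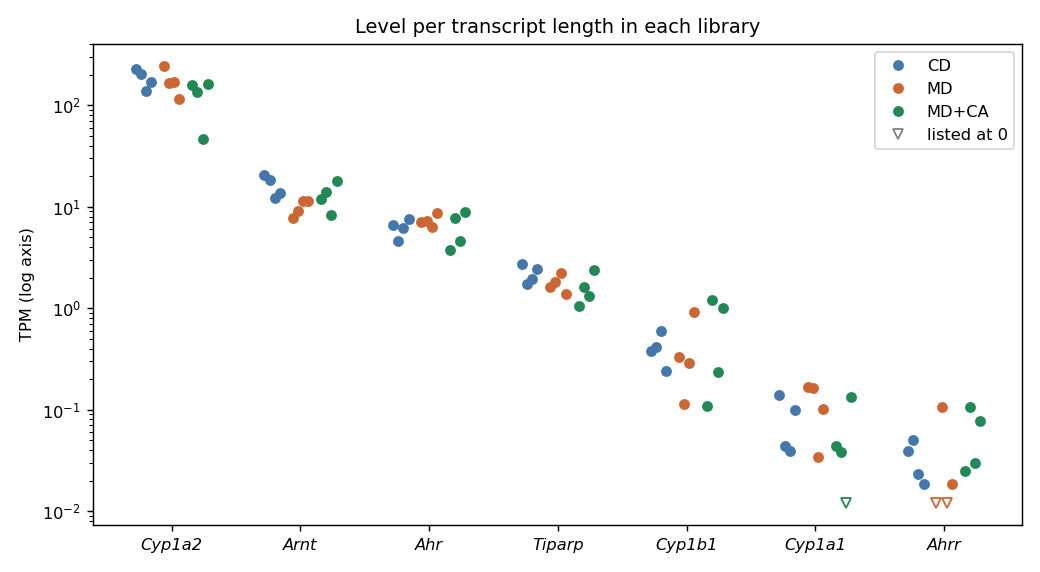
TPM of the 7 genes in each library on a log axis, ordered by mean, with colours for CD, MD and MD+CA and open triangles for libraries listed at 0. Cyp1a2 (46.6 to 245 TPM) lies above all other genes, while Cyp1a1 and Ahrr stay at or below 0.166 TPM.

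The members did not move together across libraries in any pair that passed the test. Among 10 pairs of the 5 tested genes over 12 libraries, the strongest Pearson correlation over all 12 was between Tiparp and Cyp1a2 (r = 0.505, permutation p = 0.099, adjusted 0.347). Their Spearman rho was 0.615 (permutation p = 0.0378, adjusted 0.312), r without the 2 libraries of most extreme Tiparp was 0.523, and r within groups was 0.174. Other pairs were stronger on these checks: within groups r was 0.694 for Ahr and Cyp1b1, and without the 2 libraries of most extreme Tiparp or Arnt it was -0.748 for Tiparp and Cyp1b1 and 0.713 for Arnt and Cyp1b1, against 0.025 and 0.42 over all 12. Ahr and its target Cyp1a2 had r = 0.131 (permutation p = 0.687, adjusted 0.937; rho = -0.098, permutation p = 0.763, adjusted 0.922), which was 0.281 without the 2 libraries of most extreme Ahr. As a description over the same 12 libraries and 10646 protein-coding genes, the genes most like each member by Pearson r were as follows. For Ahr they were Wdhd1 (0.94), Naa25 (0.919) and Pdzrn3 (0.907), and for Arnt they were Mapk6 (0.95), Vps13c (0.945) and Hnrnpu (0.94). For Tiparp they were Rgs16 (0.909), Lpin1 (0.898) and Npc1 (0.893). Cyp1a2 was most like Bmf (0.944), Txnl4b (0.904) and Hamp2 (0.9), and Cyp1b1 most like Bltp3a (0.851), Serinc1 (0.849) and Wwtr1 (0.845). These are the highest of many correlations, over libraries that differed in depth and in mitochondrial share. The part of those differences in the correlations was not tested.

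Other AhR-responsive liver genes were a list of 20, of which 16 could be tested. This list, like the other lists here, was chosen with earlier results of these data known. Its counts beside those of all genes are a description only. In MD+CA vs MD, 4 of the 16 fell and 0 rose, where 1.64% of all genes tested fell and 1.06% rose. The genes that fell were Cyp2a5, a coumarin hydroxylase, Fmo2, a flavin-containing monooxygenase, Slc46a3, a lysosomal transporter, and Nfe2l2, which encodes the antioxidant regulator NRF2. The median log2 fold change of the 16 was -0.13 against -0.0035 over all genes tested, and 10 of 16 were negative. In MD vs CD 0 of 16 passed by edgeR, DESeq2 or limma voom. At an unadjusted edgeR p under 0.05 there were 4 of 16, against 19.9% of all genes tested. The median was 0.07 against 0.043. In MD+CA vs CD, Fmo2 fell and 0 rose, where 0.308% of all genes tested fell and 0.22% rose, with a median of -0.07 against 0.016.

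**Figure D4:**
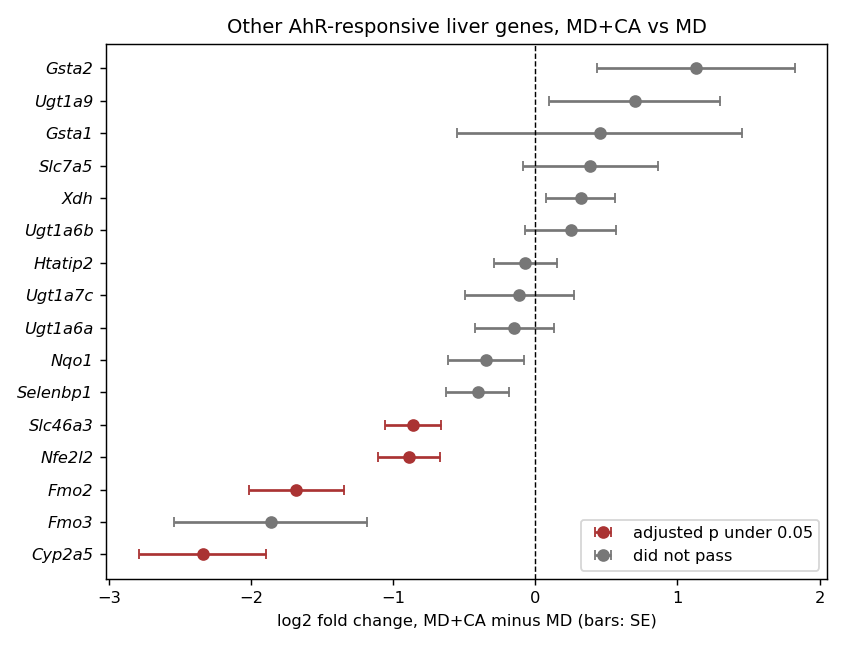
Log2 fold change of MD+CA minus MD with its SE (horizontal axis) for the 16 tested genes of the AhR-responsive list, sorted. Red marks the 4 with an edgeR adjusted p under 0.05, all negative, from Cyp2a5 at -2.34 to Slc46a3 at -0.86.

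Cyp2a5 had 1048, 803, 555 and 1246 CPM in CD, 2223, 2235, 1070 and 1765 in MD, and 583, 379, 93.4 and 382 in MD+CA. All MD+CA libraries were below all MD libraries, and the log2 fold change was -2.34 (SE 0.45, edgeR adjusted p = 0.0179). Its near-identical neighbour Cyp2a4 shares reads with it, so the division between them is uncertain. Without MD+CA replicate 2 the Cyp2a5 value was -2.37 and its edgeR adjusted p 0.0503. MD vs CD gave 1.0 (SE 0.43, adjusted p = 0.217), and MD+CA vs CD gave -1.34 (SE 0.43, adjusted p = 0.203). The fall against CD passed in 3 of 21 alternatives, which were DESeq2 (adjusted p = 0.0396), no count filter and the replicate number as a block (both 0.0332).

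Fmo2 was steady in CD, at 42.2, 44.2, 41.8 and 42.3 CPM, varied in MD (34.7, 30.4, 54.5 and 61.6), and was lower in every MD+CA library (18.2, 16.2, 4.68 and 17.0). MD+CA was at a log2 fold change of -1.68 from MD (SE 0.33, edgeR adjusted p = 0.0198) and of -1.59 from CD (SE 0.33, adjusted p = 0.0473). Leaving out MD replicate 4 ended the first call (-1.50, edgeR adjusted p = 0.0508), as did a transcript length offset (-1.03, adjusted p = 0.168). The call against CD was lost without any one of the 4 CD libraries, MD replicates 1, 3 or 4, or MD+CA replicates 1 or 2, at adjusted p-values from 0.0529 to 0.143 and log2 fold changes of -1.74 to -1.58.

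Slc46a3 averaged 7.02 ± 1.11 CPM in MD+CA and 12.7 ± 2.1 in MD (SD, n = 4). The log2 fold change was -0.86 (SE 0.20, edgeR adjusted p = 0.0342). Its MD+CA libraries, 5.81 to 7.97, were also below the CD libraries, 8.11 to 11.2, but the difference from CD did not pass by edgeR. How many of all genes lie apart in this way was not counted. In 21 alternatives the log2 fold change from CD was -0.503 to -0.313. The adjusted p-values of these edgeR, DESeq2 and limma voom fits were 0.343 or more. The call against MD was lost without CD replicate 1, MD replicates 1, 2 or 4, or MD+CA replicates 2 or 3 (edgeR adjusted p-values from 0.0513 to 0.104). Nfe2l2 had 53.7 ± 7.43 CPM in MD+CA against 99.4 ± 33.2 in MD and 67.3 ± 3.59 in CD (SD, n = 4), with 1 MD library, replicate 2, at 148. The log2 fold change of MD+CA against MD was -0.89 (SE 0.22, edgeR adjusted p = 0.0437). This call held only when MD replicate 3 or MD+CA replicate 1 was the library left out, with adjusted p-values of 0.0579 to 0.105 without each of the other 10. Without MD replicate 2 its log2 fold change was -0.63. Leaving out MD replicate 2 and MD+CA replicate 3 together, 2 of the 16 fell, Cyp2a5 and Fmo2. Nqo1, a quinone reductase and standard AhR and NRF2 target, had 7.54 ± 1.58 CPM in MD and 4.73 ± 0.73 in CD (SD, n = 4), and its log2 fold change was 0.68 (SE 0.27) with an edgeR adjusted p of 0.19.

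**Figure D5:**
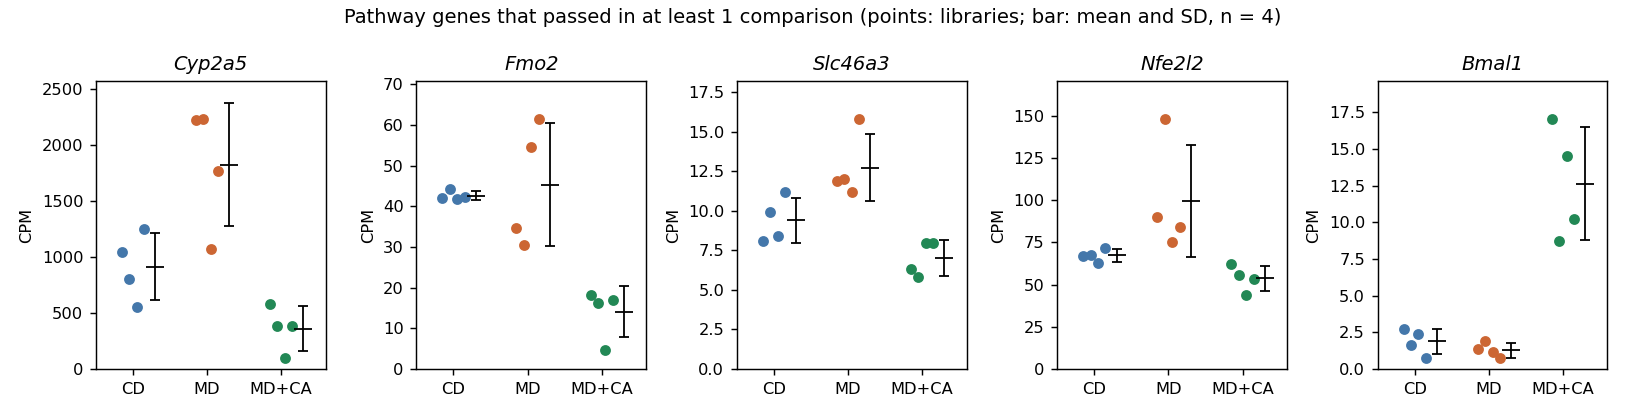
TMM-scaled CPM (vertical axes from 0) of Cyp2a5, Fmo2, Slc46a3, Nfe2l2 and Bmal1 in CD, MD and MD+CA, with points for the 4 libraries and bars for mean and SD. The MD+CA libraries lie below all MD libraries for the first 4 genes and above them for Bmal1 (8.76 to 17.1 against 0.716 to 1.94). The share of all genes tested whose groups lie apart in this way was not counted.

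Of the 4 listed genes with too few reads, Aldh3a1 had 0 to 2 reads a library, Ido1 0 to 3 and Stc2, reported as a cinnabarinic acid target in liver, 1 to 14. Stc2 had 5, 7, 5 and 4 reads in CD, 14, 5, 6 and 9 in MD, and 5, 1, 2 and 6 in MD+CA. Cyp2s1 had 9, 3, 5 and 5 reads in CD, 11, 4, 7 and 9 in MD, and 0, 1, 0 and 3 in MD+CA. The MD+CA libraries of Cyp2s1 were at or below 3 reads, all under the lowest MD library, and this gene was singled out after its values were seen. How many genes of such low counts lie apart in this way was not counted.

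Genes for the proteins that hold, activate and remove the receptor did not pass the test by edgeR. All 18 genes of the cytosolic complex, coregulators and turnover were tested and 0 passed in each comparison by edgeR. At an unadjusted p under 0.05 there was 1 of 18 in each. Of all genes tested, 19.9% lay under that value in MD vs CD, 23.2% in MD+CA vs MD and 10.5% in MD+CA vs CD. Limma voom also called 0, and DESeq2 called 1, in MD+CA vs MD. Their median log2 fold change was 0.03 for MD vs CD, 0.10 for MD+CA vs MD and 0.06 for MD+CA vs CD. Cul4b, the scaffold of a ubiquitin ligase that AhR can join, had 29.5 ± 2.59 CPM in MD and 42.8 ± 5.2 in CD (SD, n = 4; log2 fold change -0.54, edgeR adjusted p = 0.14). Sp1, a cooperating transcription factor, was at -0.49 in the same comparison (adjusted p = 0.272). In MD+CA vs MD, Cul4b was at 0.36 (edgeR adjusted p = 0.247). Hsp90aa1, the chaperone, was at 0.98 in MD+CA vs CD (edgeR adjusted p = 0.387) and the coactivator Ncoa3 at -0.38 (adjusted p = 0.64).

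Enzymes that make or clear AhR ligands were 13 genes, 12 of them tested, and 0 passed in any comparison by edgeR. At an unadjusted p under 0.05 there were 2 of 12 in MD+CA vs MD and 1 in each other comparison. Of all genes tested, 23.2% lay under that value in MD+CA vs MD, 19.9% in MD vs CD and 10.5% in MD+CA vs CD. Limma voom also called 0, and DESeq2 called 1, Kynu, higher in MD+CA vs MD. Kynu, kynureninase of the tryptophan pathway, had 121 ± 23 CPM in MD+CA, 67.8 ± 15.1 in MD and 99.9 ± 16.9 in CD (SD, n = 4). Its log2 fold change was 0.83 in MD+CA vs MD (SE 0.22, edgeR adjusted p = 0.0553) and -0.56 in MD vs CD (SE 0.22, adjusted p = 0.187). Afmid, kynurenine formamidase, was at -0.58 in MD+CA vs MD (edgeR adjusted p = 0.13) and -0.54 in MD+CA vs CD (adjusted p = 0.358). Cat, catalase, was at -0.56 in MD vs CD (adjusted p = 0.274), and Il4i1, an amino acid oxidase, at 0.80 in MD+CA vs CD (adjusted p = 0.686).

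Arnt serves other partners too. Of 12 hypoxia-inducible genes that need it, 11 were tested and 0 passed in any comparison by edgeR. At an unadjusted p under 0.05 there were 4 of 11 in MD+CA vs CD and 1 in each other comparison. Of all genes tested, 10.5% lay under that value in MD+CA vs CD, 19.9% in MD vs CD and 23.2% in MD+CA vs MD. Limma voom also called 0, and DESeq2 called 1 gene in each MD+CA comparison, Ndrg1 higher than in MD and Vegfa lower than in CD. The median log2 fold change was -0.19 for MD vs CD, -0.12 for MD+CA vs MD and -0.02 for MD+CA vs CD. Slc2a1, a glucose transporter, was at 1.04 in MD vs CD (edgeR adjusted p = 0.137). Vegfa, the endothelial growth factor, had 260 ± 64.4 CPM in MD+CA and 358 ± 38.1 in MD (SD, n = 4). Its log2 fold change was -0.46 in MD vs CD (adjusted p = 0.264), -0.46 in MD+CA vs MD (adjusted p = 0.227) and -0.92 in MD+CA vs CD (edgeR adjusted p = 0.0756). Ndrg1 was at 0.84 in MD+CA vs MD (adjusted p = 0.0888) and 0.78 in MD+CA vs CD (adjusted p = 0.241).

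Among 13 other bHLH-PAS genes, 6 were tested and Bmal1, the core clock activator, rose in MD+CA. Over all genes tested, 1.06% rose in MD+CA vs MD and 0.22% in MD+CA vs CD by edgeR. Bmal1 had 2.70, 1.62, 2.41 and 0.765 CPM in CD, 1.33, 1.94, 1.13 and 0.716 in MD, and 17.1, 8.76, 14.6 and 10.2 in MD+CA. Every MD+CA library was above every other library, with a log2 fold change of 3.31 from MD (SE 0.39, edgeR adjusted p = 0.00136) and 2.75 from CD (SE 0.38, adjusted p = 0.00783). Both calls held in all 21 alternatives. How many genes set MD+CA apart from every other library was not counted. DESeq2 also called Npas2 in both comparisons and Clock in MD+CA vs CD. In MD vs CD 0 of 6 passed by edgeR, DESeq2 or limma voom. At an unadjusted edgeR p under 0.05 there was 1 of 6, against 19.9% of all genes tested in that comparison. There Hif1a, the hypoxia-inducible partner of Arnt, was at a log2 fold change of -0.86 (edgeR adjusted p = 0.138) and Epas1, its relative, at -0.43 (adjusted p = 0.337).

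Clock genes and Kupffer cell markers differed in MD+CA from both other groups, while immediate early genes were high in MD. These lists too were chosen with earlier results of these data known. By edgeR, 1.06% of all genes tested rose and 1.64% fell in MD+CA vs MD, and 0.22% rose and 0.308% fell in MD+CA vs CD. Of 14 clock genes, Bmal1 among them, 1 rose and 8 fell in MD+CA vs MD. Per3, a clock repressor, had 5.51 ± 4.44 CPM in MD+CA and 66.0 ± 16.7 in MD (SD, n = 4; log2 fold change -3.56, edgeR adjusted p = 0.00136), and Ciart and Tef were at -4.35 and -2.27 (adjusted p = 0.00162 and 0.0035). In MD+CA vs CD 1 rose and 4 fell. Without MD replicate 2 and MD+CA replicate 3, 1 rose and 4 fell against MD. Of 11 tested immediate early genes 7 fell in MD+CA vs MD, with Ier2 at -3.18, Jun at -2.61, Fos at -5.41 and Egr1 at -4.74 (edgeR adjusted p = 0.0171 to 0.0198). Without MD replicate 2 and MD+CA replicate 3, and with limma voom, 0 of the 11 fell, and with DESeq2 8 fell. In MD vs CD 1 of the 11 rose, Jun, at 2.88 (edgeR adjusted p = 0.0469), and 10 had a positive log2 fold change, with a median of 2.34. Over all genes tested, 0.088% passed there in either direction, with a median of 0.043. DESeq2 called 7 of the 11 higher in MD vs CD, limma voom 1, and 0 rose without MD replicate 2 and MD+CA replicate 3. The number of all genes called also differed between these settings and is given at the end of the text. In MD+CA vs CD 0 of the 11 passed by edgeR, DESeq2 or limma voom. At an unadjusted edgeR p under 0.05 there were 0 of 11, against 10.5% of all genes tested. The summed level of the list was 69.6 to 368 CPM in CD, 206 to 1928 in MD and 84.0 to 169 in MD+CA. Of 10 Kupffer cell markers 4 rose in MD+CA vs MD and 3 in MD+CA vs CD, and their summed level was 220 to 278 CPM in CD, 177 to 293 in MD and 362 to 740 in MD+CA, with none of the 10 at 0 in all libraries. Without MD replicate 2 and MD+CA replicate 3, 1 of them, Cd5l, rose against MD and 2, C1qa and Marco, rose against CD. The time of day of collection is not in the labels. The part of these groups of genes in the values of Ahr and the genes around it was not tested.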

How the data were processed

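Liver RNA was selected by poly(A) and sequenced, per the labels' protocols. Salmon 1.10.3, fastp, DESeq2 and build GRCm39 are named in the submitters' processing notes, without annotation release or strand setting. The authors' quantification gave an estimated count for each transcript, the expected count of reads, without normalization, as deposited. The deposited TPM are scaled for transcript length and depth within a library, per the file headers. The deposited tables list 147556 transcripts.

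For each gene the expected counts of its transcripts were summed, then rounded to whole numbers. Libraries held 9089586 to 14492587 reads. After edgeR's filterByExpr (minimum count 10), 13631 genes were tested in 1 edgeR 4.0.16 quasi-likelihood model of 3 groups and 12 libraries (TMM, 9 residual degrees of freedom, no covariate), with Benjamini-Hochberg adjustment over all of them and a threshold of 0.05. SE is the log2 fold change over the square root of F. TPM, summed per gene, were used only to compare levels between genes. Low counts have exact Poisson 95% intervals. Library values and shares were compared with exact permutation tests, and correlations with permutation p-values.

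The members and gene lists were chosen with earlier results of these data known. The named genes were the 7 members, up to 4 passing genes of each list per comparison by smallest p (where none passed, the 2 smallest), and the 3 genes most like each tested member. Genes named outside the rule were Nqo1, Stc2, Aldh3a1, Ido1, Cyp2s1, Alb, Apoa1, Glul, Cyp2e1, Cyp2a4 and the sex-linked genes. On simulated counts for the 13631 genes, 20% of 2 fold and 90% of 4 fold changes were recovered for MD vs CD (7.3% of calls false), 30% and 74% for MD+CA vs MD (5.8% false), and 18% and 80% for MD+CA vs CD (4% false). Alternatives were RLE scaling, DESeq2 1.42.0, limma 3.58.1 voom with sample weights, no count filter, a transcript length offset, the replicate number as a block, a model of only the 2 groups compared and leaving out each library. A fragment length covariate and leaving out 2 libraries together were added after the data were seen. Values of some listed genes are not reported here. No pair of libraries of the same group was a duplicate, and pairs across groups were not checked for this. Promoter windows came from RefSeq's table in GRCm38.p6, which holds 6 of the 7 genes and differs from the submitters' build. R 4.3.3, Python 3.11.15, numpy 2.4.6, scipy 1.17.1, pandas 2.3.3 and matplotlib 3.10.9 were used.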

Additional observations from a re-analysis of the deposited data

Results flagged for a closer look

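One value stood apart within its group among the 36 groups of 4 libraries examined (12 genes in 3 groups). Fmo2 in MD+CA replicate 3 was at 4.68 CPM, and its gap to the next library made up 0.853 of the whole range of the group. Chance sets apart about 1 in 20 groups by the criterion used (Dixon's test at 95%).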

How the results depend on the processing

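Under 21 alternatives per comparison, 0 of 315 values of the 5 tested members passed the threshold, and 17 changed sign. With limma voom, Cyp1a2 was at -0.058 in MD vs CD and Ahr at -0.002 in MD+CA vs CD. With the length offset, Ahr was at -0.015 in MD+CA vs CD and Fmo2 at -0.307 in MD vs CD. With the fragment length covariate, Tiparp was at 0.009 and Cyp1a2 at -0.142 in MD vs CD, and Cyp1b1 at -0.583 in MD+CA vs MD. Leaving out 1 library gave, for MD vs CD, -0.116 to 0.057 for Tiparp, -0.172 to 0.228 for Cyp1a2, -0.766 to 0.429 for Cyp1b1 and -0.095 to 0.238 for Fmo2, and for MD+CA vs CD -0.147 to 0.216 for Ahr. The share of Ahr-202 in MD minus CD ranged from -0.054 to 0.386 percentage points. The causes were not tested.

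Counts of all genes called depended on the setting. For diet (MD vs CD), treatment (MD+CA vs MD) and treated diet (MD+CA vs CD), 12, 369 and 72 genes were called by edgeR, 638, 1203 and 334 by DESeq2, 304, 338 and 177 by limma voom, 481, 1017 and 390 without the count filter, 2, 197 and 34 with the length offset, 6, 142 and 164 with the fragment length covariate, 35, 99 and 46 with only the 2 compared groups, and 2, 67 and 59 without MD replicate 2 and MD+CA replicate 3. Leaving out 1 library gave 0 (without CD replicate 1) to 26 (without MD replicate 3), 109 (without MD replicate 1) to 963 (without MD replicate 3), and 17 (without CD replicate 4) to 169 (without MD+CA replicate 4).

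AhR-responsive genes that fell in MD+CA vs MD numbered 2 with the length offset, 2 with the fragment length covariate, 2 without the 2 libraries that stood apart, 1 with only the 2 compared groups, and 1 to 4 when 1 library was left out. In MD+CA vs CD they numbered 2 with DESeq2, 3 without the count filter, 0 with the length offset, 0 with only the 2 compared groups and 0 to 1 when 1 library was left out. In 21 alternatives Cyp2a5, Fmo2, Slc46a3 and Nfe2l2 lost the MD+CA vs MD call in 1, 3, 9 and 14, and Bmal1 in 0.

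Replicate numbers are not stated to pair mice, so the main edgeR model did not treat them as pairs. The libraries themselves leaned towards shared numbers, since 8 of 12 same-numbered pairs had a correlation over 0.1. Same-numbered pairs ranged from -0.079 to 0.35, with a median of 0.213 against -0.051 for pairs of different number. With the replicate number as a block, 12, 664 and 154 genes were called in the same order, 2 AhR-responsive genes fell in MD+CA vs CD, Cyp1b1 was at -0.166 in MD vs CD and Ahr at -0.011 in MD+CA vs CD. Of the 12 libraries 10 correlated best with their own number, a hint from the data and not the design. Depth limits Ahrr and Cyp1a1, where 3 reads equal 0.207 to 0.33 RPM.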
